A study of Mus musculus with 6 samples.

Results

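Foxp3, 4 transcription factor genes of the Ikaros family (Ikzf1, Ikzf2, Ikzf3 and Ikzf4) and 3 cell surface genes linked to regulatory T cells (Nrp1, Lrrc32 and Izumo1r) were followed through the activation of naive CD4+ T cells. These 8 genes were chosen by name and found by NCBI gene identifier, among 18446 genes in the table. All 8 averaged at least 1 FPKM over the libraries, as did 10347 genes in all. FPKM counts fragments per length of transcript and per sequencing depth, so levels can be compared between genes per length.

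RNA was sequenced from C57BL/6 mice of 6 to 8 weeks, either wild type (WT) or with the genotype Zak-/-. Map3k20 is the gene of Zak, a kinase upstream of stress-activated MAP kinases, and the labels also speak of deficiency limited to T cells, with no promoter or Cre line named. T cells came from spleen and lymph nodes, were sorted as CD4+CD44loCD62Lhi, and were taken at 0, 6 or 48 h of culture with antibodies against CD3 and CD28. That gate, as stated, names no marker that separates regulatory from conventional naive cells. Each of the 6 groups, WT and Zak-/- at each time, was 1 library, and the labels do not say whether mice were pooled.

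Foxp3 is the lineage factor of regulatory T cells (Treg cells), which restrain other lymphocytes. Ikaros proteins are zinc-finger factors that bind DNA and pair with each other through a second set of fingers, and several recruit corepressor complexes. Helios (Ikzf2) and Eos (Ikzf4) are known from Treg cells, while Ikaros (Ikzf1) and Aiolos (Ikzf3) are broadly expressed in lymphocytes. On the surface, neuropilin-1 (Nrp1) binds semaphorins and VEGF, GARP (Lrrc32) holds latent TGF-beta, and folate receptor 4 (Izumo1r) is a Treg marker that activated T cells also carry.

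In mm10, Foxp3 lies at chrX:7579676-7595243, Ikzf1 at chr11:11684962-11772930, Ikzf2 at chr1:69531207-69687351, Ikzf3 at chr11:98464610-98546031 and Ikzf4 at chr10:128630839-128669671. Nrp1 lies at chr8:128358591-128505476, Lrrc32 at chr7:98489305-98501831 and Izumo1r at chr9:14885814-14903951. All are protein-coding, and each value covers all transcripts of a gene. Of the genes that overlap a member in the annotation, 1 is in the table: Ccdc22, which overlaps Foxp3. Ccdc22 stood between 8.50 and 13.1 FPKM in the 6 libraries and was not highest at 6 h, where Foxp3 was. Flicr also overlaps Foxp3 but has no value in the table. The part of either gene in the Foxp3 levels was not tested.

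RefSeq (GRCm38.p6) gave promoter windows for 4 of the 8 members. The 250 bases before the first of the 2 annotated starts of Foxp3 are shown because Foxp3 went up and then down past its starting level, and because this window lies outside the gene. It spans chrX:7579426-7579675 on the plus strand. Capitals mark the core GGAAA that NFAT factors bind, on either strand:
Foxp3: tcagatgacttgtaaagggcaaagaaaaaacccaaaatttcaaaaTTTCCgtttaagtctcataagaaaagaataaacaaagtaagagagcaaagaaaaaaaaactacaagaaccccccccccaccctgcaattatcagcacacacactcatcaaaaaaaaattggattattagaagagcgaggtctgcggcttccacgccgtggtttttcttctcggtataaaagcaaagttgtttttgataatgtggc

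The Foxp3 window had 37.6% G and C and held 1 match to GGAAA, at position -205 from the start. This core is common: 55.6% of 32851 promoter windows of the same length held it on either strand. The Ikaros core GGGAA, which shares 4 bases with it, was found in 56.2% of windows but not in this one. Neither the AP-1 motif TGANTCA (6.75% of windows) nor the STAT motif TTCNNNGAA (7.02%) occurred in it. The other 5 windows overlap their own gene's span, that of Izumo1r by 184 bases and the rest by all 250, and are not printed. The window of the second Foxp3 start did hold a TTCNNNGAA match, at -139, and a GGAAA match, at -140, and had 0 matches to GGGAA. The Nrp1 window held 3 matches to GGGAA and 1 to GGAAA, the Izumo1r window 0 and 1, and the 2 Ikzf1 windows 0 and 2 matches to GGGAA and 0 to GGAAA.

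FPKM summed to between 496045 and 546113 per library. Among 137 chemosensory receptor genes with a transcript of 900 to 1000 bases, the commonest value above 0 was 0.06 or 0.07 FPKM, close to what 1 fragment would give at that length. The lowest member value, 1.18 FPKM for Ikzf2, was 19.7 times the 0.06 of its library. Map3k20 stood at 0.17 FPKM in WT and 0.10 under the label Zak-/- at 0 h, at 0.19 and 0.10 at 6 h, and at 1.35 and 1.61 at 48 h. It averaged 0.59 FPKM, below the filter of 1 FPKM. On log2(FPKM+1), 47.3% of genes were as far apart between the labels at 0 h and 58.4% at 6 h. The gene-level value of Map3k20 did not separate the genotypes at 48 h either, so the second genotype is called by its label throughout.

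All 10 CD4+ T cell markers were present in every library, with a summed level between 2346 and 2853 FPKM. The 7 naive markers summed to 3569 and 3532 FPKM at 0 h and to 656 and 672 at 48 h, in WT and under the label Zak-/-. Markers of other cells were low: the sums were 3.45 to 7.54 FPKM for 7 B cell genes, 3.70 to 5.56 for 9 myeloid genes, 1.13 to 3.46 for 6 dendritic cell genes and 0.04 to 0.37 for 5 endothelial genes. Exceptions, named after their values were seen, were the NK cell gene Klrd1 at up to 40.4 FPKM at 0 h and the CD8 gene Cd8b1 at up to 12.0. The other genes of these lists were lower. In WT at 0 h, where Klrd1 was highest, Eomes stood at 0.99 FPKM, Gzma at 0.73, Klre1 at 0.31, Klrb1c at 0.07 and Ncr1 at 0.04. Eomes reached 3.33 FPKM in the 6 h library labelled Zak-/-. Cd8a stood at 0.74 FPKM in the 48 h library labelled Zak-/-, where Cd8b1 was highest. In bulk RNA, fewer cells of a type and less RNA per cell cannot be told apart.

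Comparisons were of 2 kinds, both on log2(FPKM+1), which understates changes of low genes. Within a genotype or a time, 2 single libraries were compared with no replicate check, and a gene was counted when 2-fold or more apart. Folds of a gene between libraries are ratios of FPKM+1, whereas folds of one gene over another are ratios of FPKM. Over both genotypes, limma fitted time and genotype as additive terms, so that each time was tested against the disagreement between the genotypes. The words rose and fell are used of genes with an adjusted p under 0.05 in that fit. Its p-values measure the spread among these 6 libraries only, which may be technical, and comparisons against 0 h share the 0 h libraries.

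**Figure D1:**
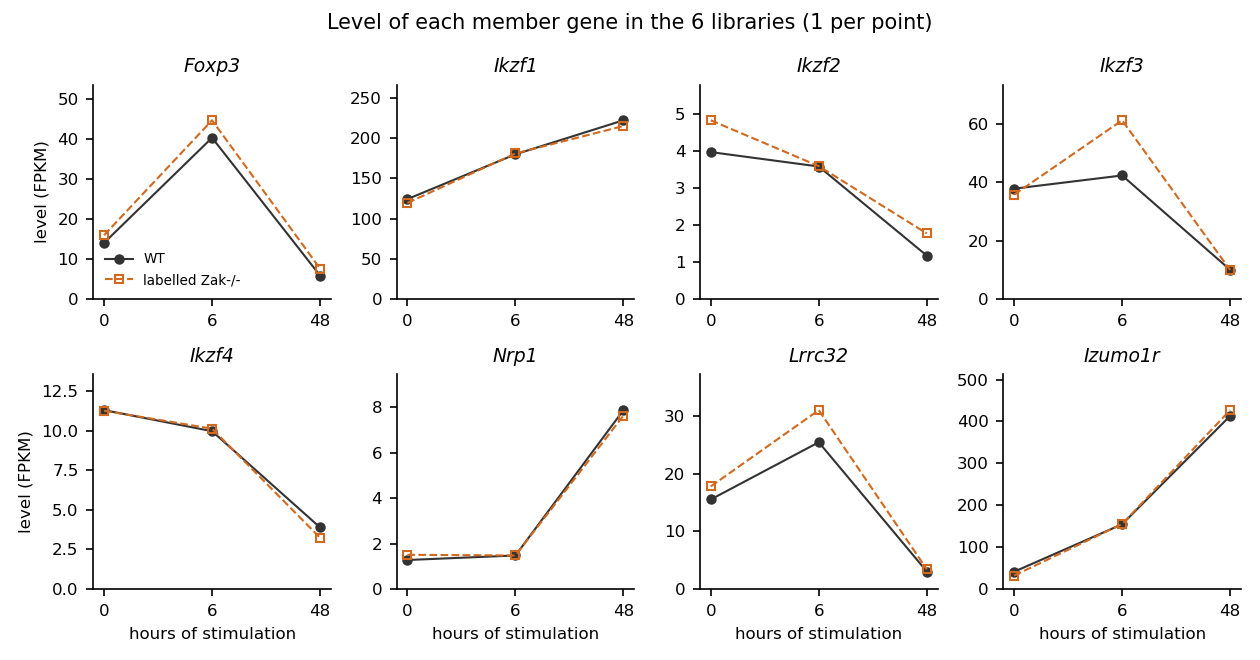
Level of the 8 member genes (FPKM, linear axis from 0) at 0, 6 and 48 h (equally spaced, not to scale) in WT (filled circles) and in libraries labelled Zak-/- (open squares), 1 library per point. Foxp3, Lrrc32 and Ikzf3 were highest at 6 h, Ikzf2 and Ikzf4 were lowest at 48 h, and Nrp1 and Izumo1r were highest at 48 h.

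Foxp3 rose early and then fell below its starting level. It stood at 14.1 FPKM in WT and 16.0 under the label Zak-/- at 0 h, at 40.3 and 44.7 at 6 h, and at 5.90 and 7.65 at 48 h. The 6 h libraries were the highest and the 48 h libraries the lowest, with no overlap between times. At 6 h the level was 2.74-fold higher than at 0 h in WT and 2.69-fold higher under the other label. The fitted log2 change was 1.44 (SE 0.09, limma adjusted p = 6.39e-05). From 6 h to 48 h Foxp3 fell by 2.49 on the log2 scale (SE 0.09, limma adjusted p = 6.59e-06), or 5.99-fold in WT and 5.28-fold under the label Zak-/-. Against 0 h, the 48 h level was 2.18-fold lower in WT and 1.96-fold lower in the library labelled Zak-/-, the second just short of 2-fold.

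Lrrc32, which encodes the latent TGF-beta receptor GARP, had the same order of times with a smaller rise and a deeper fall. It stood at 15.5 FPKM in WT and 17.8 under the label Zak-/- at 0 h, at 25.4 and 31.0 at 6 h, and at 3.04 and 3.43 at 48 h. The times did not overlap. The 6 h level was 1.60-fold and 1.70-fold higher than at rest (fitted log2 change 0.72, SE 0.09, limma adjusted p = 8.80e-04). From 6 h to 48 h Lrrc32 fell by 2.78 on the log2 scale (SE 0.09, limma adjusted p = 4.75e-06). At 48 h it was 4.09-fold and 4.24-fold below 0 h. Platelets also carry GARP; their marker Itga2b went from 2.84 and 2.82 FPKM at 0 h to 0.35 and 0.51 at 48 h, while the other 4 platelet markers were at or below 0.83 FPKM in every library. Its part in the Lrrc32 levels was not tested.

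Izumo1r, which encodes folate receptor 4, rose at both steps. At 0 h it stood at 41.4 FPKM (WT) and 32.3 (labelled Zak-/-), at 6 h at 154.7 and 155.3, and at 48 h at 413.2 and 426.9. The 48 h libraries were the highest, and no time overlapped another. The 6 h level was 3.67-fold and 4.70-fold above 0 h, and the 48 h level 9.77-fold and 12.9-fold above it. The fitted log2 change to 48 h was 3.49 (SE 0.11, limma adjusted p = 2.11e-06), the largest of any member in the 3 time comparisons. The folate receptor genes Folr1 and Folr2 reached at most 0.20 and 0.21 FPKM, and Izumo1, whose product binds this receptor on the egg, at most 0.32.

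Nrp1, the semaphorin and VEGF co-receptor, rose late. It stood at 1.28 FPKM in WT and 1.51 under the label Zak-/- at 0 h, at 1.48 in both at 6 h, and at 7.88 and 7.64 at 48 h. The 0 h and 6 h libraries overlapped, and the 48 h libraries were above all others. The fitted change to 6 h was 0.05 on the log2 scale (SE 0.12, limma adjusted p = 0.733) and that from 6 h to 48 h was 1.82 (SE 0.12, limma adjusted p = 6.17e-05). At 48 h Nrp1 was 3.89-fold and 3.44-fold above 0 h on FPKM+1, less than the ratio of the FPKM values themselves. Endothelial and dendritic cells are known for Nrp1. In WT and under the label Zak-/-, the 5 endothelial markers summed to 0.14 and 0.14 FPKM at 0 h, 0.11 and 0.04 at 6 h, and 0.07 and 0.37 at 48 h. The 6 dendritic cell markers summed to 1.70 and 2.38 at 0 h, 2.92 and 1.77 at 6 h, and 1.13 and 3.46 at 48 h. The part of these cells in the Nrp1 levels was not tested.

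Within the Ikaros family, Ikzf1 rose while the other family members fell by 48 h. Ikzf1, the gene of Ikaros itself, had 124.3 FPKM (WT) and 119.6 (labelled Zak-/-) at 0 h, 179.9 and 181.0 at 6 h, and 222.1 and 215.0 at 48 h. The times did not overlap, but no step reached 2-fold, the change to 48 h being 1.78-fold and 1.79-fold. The fitted log2 change was 0.56 to 6 h (SE 0.07, limma adjusted p = 8.27e-04) and 0.84 to 48 h (SE 0.07, limma adjusted p = 6.09e-05). From 6 h to 48 h it was 0.27 (SE 0.07, limma adjusted p = 0.0123), and this step missed the threshold with median-ratio scaling (adjusted p = 0.0829).

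Ikzf3, the Aiolos gene, had its 6 h level as the highest of the 3 times under each label. It stood at 37.8 FPKM in WT and 35.7 under the label Zak-/- at 0 h, at 42.3 and 61.1 at 6 h, and at 10.04 and 9.98 at 48 h. The 48 h libraries were the lowest, and the 6 h library labelled Zak-/- was well above all others. The fitted log2 change to 6 h was 0.46 (SE 0.15, limma adjusted p = 0.0405), which joins unequal changes of 1.12-fold and 1.69-fold and was lost under 4 of the alternatives tried. From 6 h to 48 h Ikzf3 fell by 2.24 on the log2 scale (SE 0.15, limma adjusted p = 7.62e-05), or 3.92-fold and 5.66-fold.

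Ikzf2 and Ikzf4, the genes of Helios and Eos, did not pass the test at 6 h and fell by 48 h. Ikzf2 stood at 3.98 FPKM in WT and 4.84 under the label Zak-/- at 0 h, at 3.59 and 3.60 at 6 h, and at 1.18 and 1.78 at 48 h. Ikzf4 stood at 11.3 FPKM under both labels at 0 h, at 9.97 and 10.1 at 6 h, and at 3.89 and 3.24 at 48 h. For both genes the 48 h libraries lay below all the others. The fitted change to 6 h was -0.23 for Ikzf2 (SE 0.13, limma adjusted p = 0.177) and -0.15 for Ikzf4 (SE 0.10, limma adjusted p = 0.248). By 48 h Ikzf2 fell by 1.13 (SE 0.13, limma adjusted p = 3.28e-04) and Ikzf4 fell by 1.43 (SE 0.10, limma adjusted p = 4.00e-05) on the log2 scale.

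Ikzf5, the gene of Pegasus and the remaining family member, was taken for comparison. It stood at 12.0 FPKM in WT and 12.1 under the label Zak-/- at 0 h, at 10.2 and 9.60 at 6 h, and at 8.48 and 8.14 at 48 h. It fell by 0.48 on the log2 scale from 0 h to 48 h (SE 0.09, limma adjusted p = 0.00243), less than Ikzf2, Ikzf3 or Ikzf4. The 5 genes summed to between 183.5 and 265.4 FPKM. Ikzf1 made up 65.7% of this sum in WT and 65.2% under the label Zak-/- at 0 h, 73.2% and 68.2% at 6 h, and 90.4% and 90.3% at 48 h. Ikzf3 went from 19.9% and 19.5% at 0 h to 4.09% and 4.19% at 48 h, so that Ikzf1 exceeded it 3.29-fold and 3.35-fold at 0 h but 22.1-fold and 21.5-fold at 48 h.

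**Figure D2:**
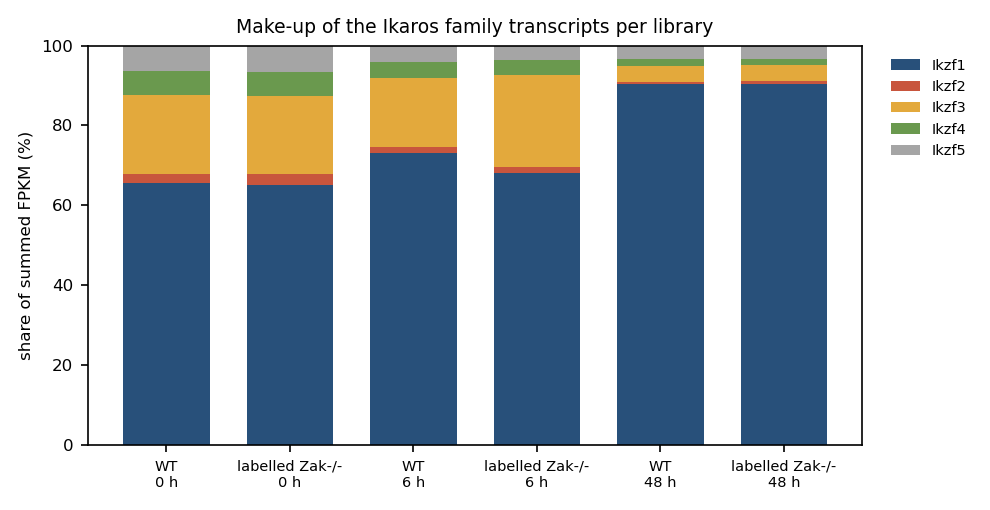
Share of the 5 Ikaros family genes in their summed FPKM (percent, stacked to 100) in each of the 6 libraries. Ikzf1 made up about 65% of the sum at 0 h in both genotypes and about 90% at 48 h, while Ikzf3 shrank from about 20% to 4%.

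By the 2-fold rule, the members' responses were counted beside those of all genes. From 0 h to 6 h, 2 of 8 members, Foxp3 and Izumo1r, were higher under each label and none was lower. Of all genes, 10.3% passed the rule in WT (8.93% higher, 1.39% lower) and 10.6% under the label Zak-/- (9.08% higher, 1.52% lower). From 0 h to 48 h, 2 members were higher in WT (Nrp1 and Izumo1r) and 5 lower (Foxp3, Ikzf2, Ikzf3, Ikzf4 and Lrrc32), against 30.1% of all genes (17.8% higher, 12.3% lower). Under the label Zak-/- 2 were higher and 4 lower, without Foxp3, against 30.5% (18.4% higher, 12% lower). From 6 h to 48 h, 2 were higher and 5 lower in WT, against 15.5% of all genes (9.32% higher, 6.14% lower). Under the other label 2 were higher and 4 lower, without Ikzf2, against 17.4% (10.8% higher, 6.55% lower). The median member changed by -1.16 in WT and -1.02 under the label Zak-/- on the log2 scale from 0 h to 48 h, and the median of all genes by 0.00 and 0.06.

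In the additive fit, 5 of 8 members rose from 0 h to 6 h and none fell, where limma called 56.7% of all genes (26.3% higher, 30.4% lower). The other 3, Ikzf2, Ikzf4 and Nrp1, had unadjusted limma p-values of 0.125, 0.185 and 0.671. From 0 h to 48 h all 8 passed, with 3 higher and 5 lower, against 74.2% of all genes (39% higher, 35.2% lower). From 6 h to 48 h again 3 were higher and 5 lower, against 59.7% (29.8% higher, 30% lower). With most genes called at these steps, the number of members called is not a result about the members. Scaling moved the direction of 2-fold differences over all genes. From 0 h to 6 h in WT the split became 7.83% higher and 2.70% lower with a common FPKM sum, and from 6 h to 48 h under the label Zak-/- it became 8.93% and 8.52% with median-ratio scaling.

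**Figure D3:**
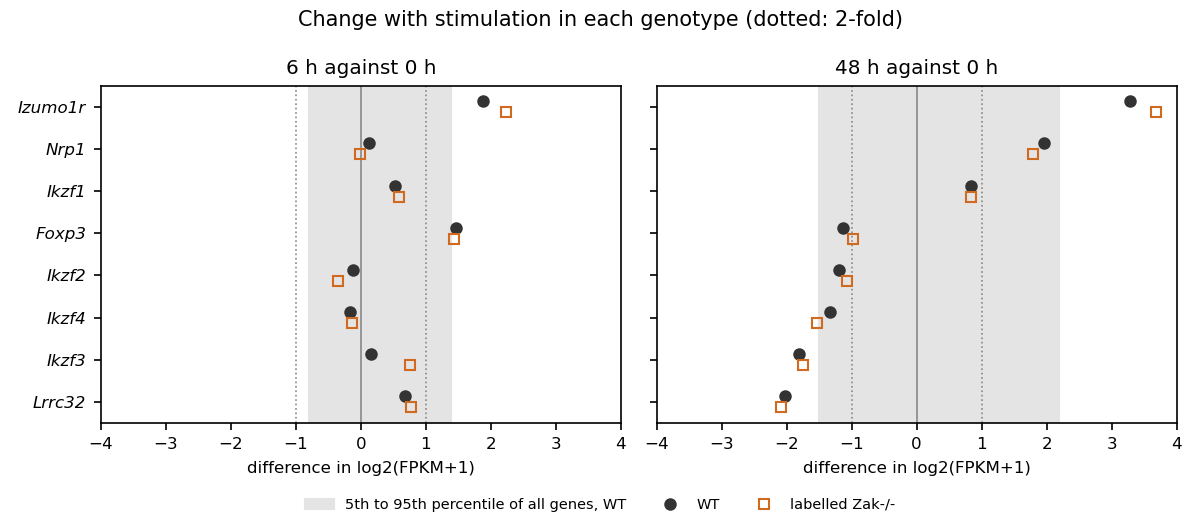
Difference in log2(FPKM+1) of each member at 6 h (left) and 48 h (right) against 0 h, in WT (filled circles) and libraries labelled Zak-/- (open squares), ordered by the WT change at 48 h. The grey band spans the 5th to 95th percentile of all 10347 genes in WT. At 48 h Izumo1r lay above the band and Ikzf3 and Lrrc32 below it under both labels, and Foxp3 and Izumo1r were the only members past 2-fold at 6 h.

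The order of the members by level changed with time. At 0 h it ran Ikzf1, Izumo1r, Ikzf3, Lrrc32, Foxp3, Ikzf4, Ikzf2 and Nrp1, taking the mean of both libraries. The ranges of the 2 libraries overlapped for Izumo1r and Ikzf3 and for Lrrc32 and Foxp3, so these neighbours were not apart. At 6 h Foxp3 stood next to Ikzf3, with overlapping ranges, and above Lrrc32. At 48 h Izumo1r led, followed by Ikzf1, Ikzf3, Nrp1, Foxp3, Ikzf4, Lrrc32 and Ikzf2, with overlap between Nrp1 and Foxp3 and between Ikzf4 and Lrrc32. Izumo1r exceeded Foxp3 by 2.94-fold in WT and 2.02-fold under the label Zak-/- at 0 h, and by 70.0-fold and 55.8-fold at 48 h.

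Genes with the most similar profile over the 6 libraries were ranked by root mean square distance of centred log2(FPKM+1) values. Nearest to Foxp3 were Xdh (distance 0.18), Plaur (0.24) and Gpr65 (0.27), all highest at 6 h. Nearest to Lrrc32 were Tgif1 (0.23), Pim1 (0.24) and the member Ikzf3 (0.25), and Pim1 (0.18) was also second to Plcxd2 (0.18) and before Fosl2 (0.18) for Ikzf3. Ikzf2 was nearest to Sertad2, Zdhhc9 and Dlgap4, each at 0.09, and Ikzf4 to Slc16a6 (0.04), Phf20l1 (0.05) and Ubp1 (0.06). Nrp1 was nearest to Gins3 (0.08), Cbx5 (0.09) and Dglucy (0.09), and Izumo1r to Dctpp1 (0.12), Fam162a (0.13) and Ptpn7 (0.14). Ikzf1 spanned less than 1 on the log2 scale and was not ranked. Between members, Ikzf2 and Ikzf4 were closest (0.24) and Lrrc32 and Izumo1r farthest apart (2.37).

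Of 24 other genes associated with Treg cells, 15 averaged at least 1 FPKM. From 0 h to 6 h 10 of these 15 rose and 1 fell (26.3% and 30.4% of all genes), and from 0 h to 48 h 9 rose and 1 fell (39% and 35.2%). Between 6 h and 48 h 6 rose and 7 fell (29.8% and 30%). Gpr83, Ccr8 and Socs2 averaged under 1 FPKM at 0 h and passed the filter through stimulated libraries, so the counts of genes that rose are in part set by the filter. Il2ra, which encodes the high-affinity IL-2 receptor subunit CD25, stood at 10.2 and 14.2 FPKM at 0 h, 99.65 and 99.96 at 6 h, and 89.6 and 95.4 at 48 h. Gpr83, a G-protein coupled receptor gene of Treg cells, went from 0.46 and 0.61 FPKM to 14.3 and 15.0 at 6 h and 14.2 and 14.3 at 48 h.

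Ccr8 and Tnfrsf9 were highest at 6 h, as Foxp3 was, but lowest at 0 h, where Foxp3 was lowest at 48 h. Ccr8, a chemokine receptor gene, stood at 0.82 and 1.11 FPKM at 0 h, 13.1 and 18.7 at 6 h, and 1.32 and 1.45 at 48 h. Tnfrsf9, the costimulatory receptor gene, had 285.3 and 307.4 FPKM at 6 h, 100.8 and 105.7 at 48 h and 4.65 and 5.72 at rest. Capg, an actin capping gene, rose from 6 h to 48 h (46.1 and 47.1 to 135.0 and 149.0 FPKM), and the zinc-finger gene Plagl1 fell (4.86 and 4.21 to 0.95 and 1.01). Plagl1 stood at 3.92 and 3.82 FPKM at 0 h, so its levels had the Foxp3 order of times.

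**Figure D4:**
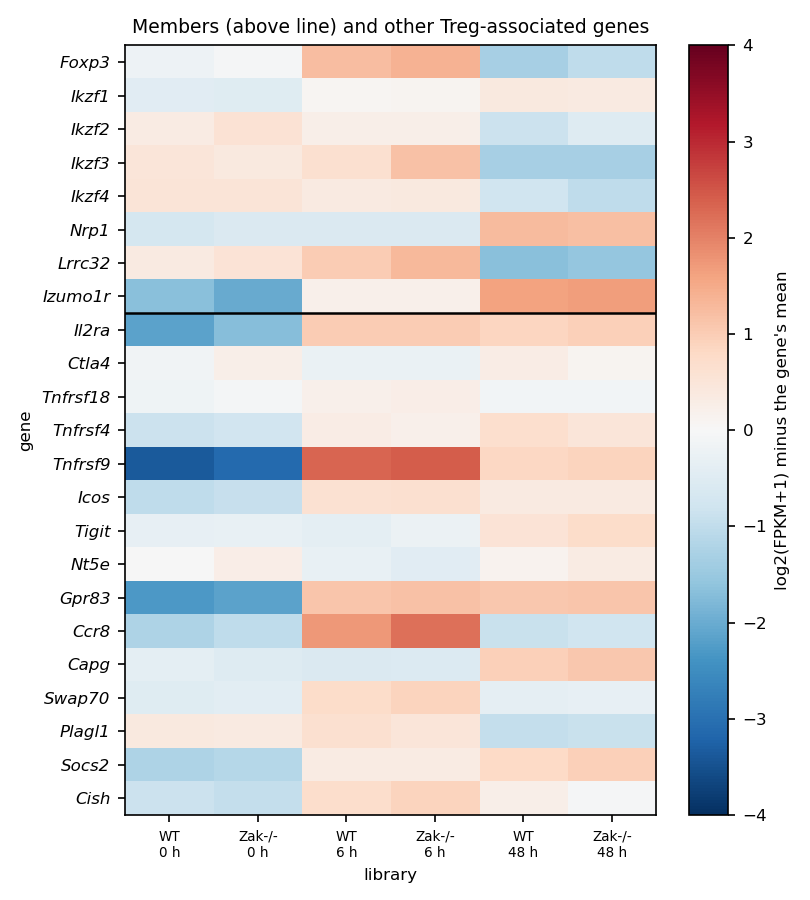
Heat map of log2(FPKM+1) minus each gene's mean over the 6 libraries, for the 8 members (above the line) and the 15 other Treg-associated genes that averaged at least 1 FPKM. Foxp3 and Ccr8 are above their mean only in the 6 h columns, whereas Il2ra and Gpr83 are above theirs at 6 h and 48 h.

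Regulators and partners of Foxp3 changed in both directions. All 24 listed genes passed the filter; 6 rose and 7 fell from 0 h to 6 h (26.3% and 30.4% of all genes), and 6 rose and 11 fell from 0 h to 48 h (39% and 35.2%). Their median log2 change to 48 h was -0.25 in WT and -0.26 under the label Zak-/-, against 0.00 and 0.06 over all genes. Nfatc1, an NFAT factor gene, was highest in the 6 h library labelled Zak-/-, at 137.7 FPKM against 31.1 at 0 h, and stood at 104.2 against 31.5 in WT. Stat5b, which carries the IL-2 signal to Foxp3, went from 176.1 and 205.5 FPKM at 0 h to 87.6 and 110.4 at 6 h and 29.3 and 29.1 at 48 h. Satb1, a chromatin organiser, fell from 372.6 and 382.1 FPKM at 0 h to 59.4 and 50.8 at 48 h. Uhrf1 and Dnmt1, which maintain DNA methylation, rose by 48 h, Uhrf1 from 0.99 and 1.10 to 110.3 and 109.9 FPKM and Dnmt1 from 22.4 and 23.0 to 112.1 and 105.1. The histone deacetylase gene Hdac7 rose from 24.6 and 25.2 to 185.8 and 204.7 FPKM.

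Of 17 genes of the corepressor complexes that Ikaros proteins bind, 16 passed the filter. From 0 h to 48 h 9 of them rose and 5 fell, where 39% of all genes rose and 35.2% fell. Their median log2 change was 0.33 in WT and 0.43 under the label Zak-/-, against 0.00 and 0.06 over all genes. Rbbp7, a histone-binding subunit, stood at 47.9 and 47.7 FPKM at 0 h, 112.4 and 93.4 at 6 h, and 187.3 and 173.7 at 48 h, and Chd4, the remodelling ATPase of the NuRD complex, at 68.9 and 62.6 at 0 h and 143.0 and 127.5 at 48 h. Of the 5 genes of the cereblon ligase, through which thalidomide-type drugs degrade Ikaros proteins in human cells, Crbn fell from 79.3 and 92.8 FPKM at 0 h to 41.8 and 39.7 at 6 h and 22.3 and 23.6 at 48 h. Ddb1 rose to 122.9 and 114.2 from 79.8 and 79.5 at 0 h, while Cul4a, Cul4b and Rbx1 did not pass the test between 0 h and 48 h.

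Of 13 genes for ligands and co-receptors of Nrp1, 5 passed the filter. Of these, Vegfa, Plxna1 and Plxna3 averaged under 1 FPKM at 0 h and passed through stimulated libraries, so no count or median is read from this list. Vegfa, a ligand, stood at 0.60 and 0.77 FPKM at 0 h, 11.3 and 12.4 at 6 h, and 12.4 and 12.1 at 48 h. It rose to 6 h, a step at which Nrp1 did not pass the test. The plexin gene Plxna3 went from 0.43 and 0.30 FPKM at 0 h to 2.37 and 2.33 at 48 h. Plxna1 went from 0.77 and 0.72 to 2.85 and 2.37.

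Of 13 genes that handle or receive TGF-beta beside GARP, 7 passed, and 2 rose and 4 fell from 0 h to 48 h, where 39% of all genes rose and 35.2% fell. Their median log2 change was -0.74 in WT and -0.60 under the label Zak-/-, against 0.00 and 0.06 over all genes. Tgfb1, which encodes the cytokine that GARP holds and was named after its values were seen, stood at 61.2 and 55.3 FPKM at 0 h and 99.7 and 103.8 at 48 h. Tgfbr2, a receptor chain, fell from 116.8 and 129.2 FPKM at 0 h to 19.7 and 20.2 at 48 h, and the inhibitor gene Smad7 from 55.2 and 55.7 to 3.59 and 4.10.

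Between the genotypes, none of the 8 members was 2-fold apart at any time. Of all genes, 0.271% were at 0 h (0.222% higher under the label Zak-/-, 0.0483% lower), 0.242% at 6 h (0.116% higher, 0.126% lower) and 2.23% at 48 h (1.8% higher, 0.435% lower). The 48 h libraries also differed near 0 FPKM, with 2793 genes at 0 in WT and 1777 under the label Zak-/-. Of the 137 chemosensory receptor genes, 19 and 62 were above 0 there. At 6 h the genes at 0 differed the other way, 2096 in WT and 2612 under the label. The bearing of this on the shares and on low members was not tested. On log2(FPKM+1), the largest member difference was that of Ikzf3 at 6 h, 61.1 FPKM under the label Zak-/- against 42.3 in WT (1.44-fold), and 2.63% of all genes were as far apart at that time. Next was Ikzf2 at 48 h, with 1.78 FPKM against 1.18 (1.28-fold on FPKM+1, 7.77% of genes as far apart). Izumo1r at 0 h followed, with 32.3 against 41.4 (1.27-fold lower, 4.70%). The order of the first 2 depends on the pseudocount: with 0.1 FPKM the log2 difference was 0.55 for Ikzf2 at 48 h and 0.53 for Ikzf3 at 6 h. At the other times Ikzf3 was 1.06-fold lower (0 h) and 1.005-fold lower (48 h) under the label Zak-/-.

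Foxp3, Lrrc32 and Ikzf2 were higher under the label Zak-/- at all 3 times. No share of all genes is given beside this, so it is not read as a result about the members. For Foxp3 the libraries differed 1.13-fold before stimulation, 1.11-fold after 6 h and 1.25-fold after 48 h. For Lrrc32 the log2 differences were 0.19, 0.28 and 0.13. For Ikzf2 they were 0.23, 0.0031 and 0.35, and the 6 h value was -0.0056 with upper-quartile scaling. With median-ratio scaling the 48 h difference was 0.0024 for Lrrc32 and 0.18 for Foxp3, from 0.33 unscaled. Over the 3 times, the fitted log2 difference was 0.21 for Foxp3 (SE 0.07, unadjusted p = 0.0218, limma adjusted p = 0.833) and 0.20 for Lrrc32 (SE 0.07, unadjusted p = 0.0300, limma adjusted p = 0.833). It was 0.19 for Ikzf2 (SE 0.11, unadjusted p = 0.116, limma adjusted p = 0.833). Foxp3 and Lrrc32 were the 2 of 8 members with an unadjusted p under 0.05, and 4.88% of all genes had one. Limma called 0 of 8 members, against 0.029% of all genes (0.0193% higher, 0.00966% lower). An exact sign test of 3 pairs cannot give a two-sided p below 0.25. The summed B cell markers also were higher under the label at each time. They stood at 7.38 against 3.45 FPKM at 0 h, 5.65 against 4.90 at 6 h and 7.54 against 5.56 at 48 h. Within that list Cd79b (1.12 against 1.48 FPKM) and Ms4a1 (0.26 against 0.38) were lower under the label at 6 h. The sums of CD4+ T cell markers and of regulatory T cell markers, which include members, were higher at each time too. The CD4+ sums were 2347 against 2346 FPKM at 0 h, 2853 against 2753 at 6 h and 2688 against 2684 at 48 h. The regulatory T cell sums were 320.6 against 303.6, 591.8 against 574.5 and 874.7 against 849.6. Both lists held genes that were lower under the label, as Cd3d (362.8 against 385.9 FPKM) and Capg (48.1 against 52.5) at 0 h. Those of the other listed cell types were not higher at every time. The part of any of these was not tested.

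The responses to stimulation kept the same direction under both labels for each member but Nrp1 at 6 h, whose log2 change was 0.12 in WT and -0.02 under the label Zak-/- unscaled and 0.11 and 0.02 with median-ratio scaling. The largest difference of responses was that of Ikzf3 at 6 h, 0.60 on the log2 scale, where 3.14% of all genes differed as much. For Izumo1r it was 0.35 at 6 h and 0.40 at 48 h, both of which use its 0 h libraries, and 14.6% and 9.45% of genes differed as much. With 1 library per group, these differences of responses have no test.

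**Figure D5:**
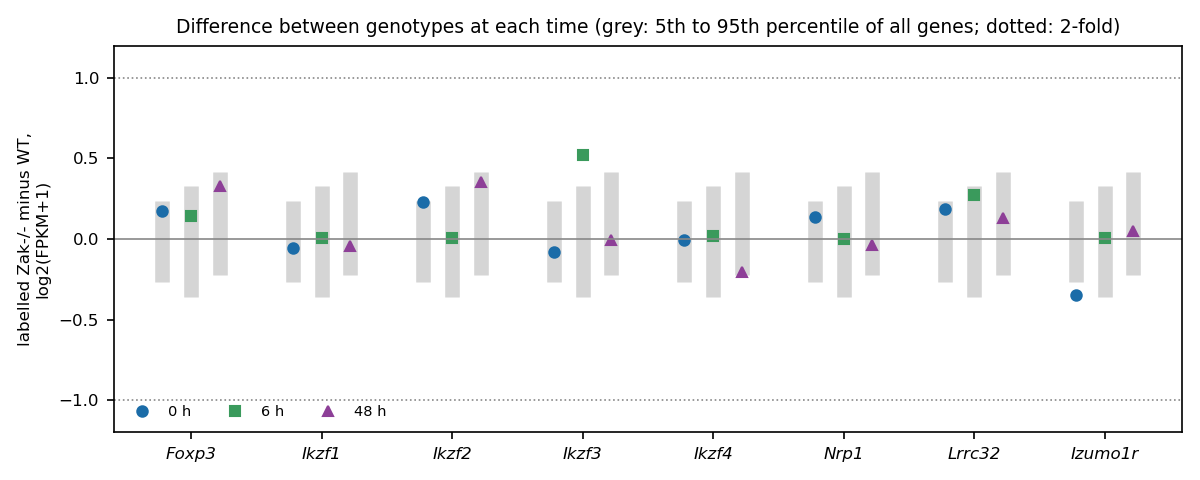
Difference in log2(FPKM+1) between the library labelled Zak-/- and WT for each member at 0 h (circles), 6 h (squares) and 48 h (triangles). Grey bars span the 5th to 95th percentile of all 10347 genes at that time. Ikzf3 at 6 h lies above its bar and Izumo1r at 0 h below it, and no member reaches the dotted 2-fold lines.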

How the data were processed

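The authors deposited 1 table of FPKM values per gene and library. Per the submitters' processing notes, Bowtie and RSEM were used with mm10; no version or option is given in these sources. Gene identifiers were matched to RefSeq symbols for 18326 of 18446 genes. Analyses used log2(FPKM+1) without rescaling and the 10347 genes that averaged at least 1 FPKM. limma 3.58.1 (R 4.3.3) fitted time and genotype additively to 6 libraries, leaving 2 residual degrees of freedom, with a variance trend and Benjamini-Hochberg adjustment over all 10347 genes. Any unequal response of the genotypes counts as error in that fit.

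The members, gene lists, marker lists and tests were chosen with earlier results of these data known. Named genes were the members, Map3k20 and, from each list, up to 3 genes per direction and comparison with the largest change of 2-fold or more (all genes of lists of 5 or fewer). Not every gene that met this rule is named: Smad3, Hdac1 and Rbbp4 met it in some comparison and are left out above. Similar profiles were the 3 nearest genes averaging at least 5 FPKM. Simulated data on 10347 genes had independent noise around an additive fit, so unequal responses of the genotypes were not simulated. Genes to be shifted were drawn from those averaging at least 5 FPKM, which leaves out the levels of Ikzf2 and Nrp1. There, limma recovered 97 of 100 genes shifted 2-fold and 100 of 100 shifted 4-fold at 6 h. It called 12 of 10147 unchanged genes. Far more genes, 56.7%, were called from 0 h to 6 h in the libraries themselves. The rate of false calls among those was not tested. Python 3.11.15, numpy 2.4.6, pandas 2.3.3 and matplotlib 3.10.9 were used.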

Additional observations from a re-analysis of the deposited data

Results flagged for a closer look

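Some members changed sign between times or genotypes, with 1 library per group and no test of the difference. The difference between the library labelled Zak-/- and WT was positive at one time and negative at another for Ikzf1, Ikzf3, Ikzf4, Nrp1 and Izumo1r. Between the highest and lowest of the 3 times it spanned 0.064 on the log2 scale for Ikzf1, 0.60 for Ikzf3, 0.23 for Ikzf4, 0.18 for Nrp1 and 0.40 for Izumo1r. Some of these signs rest on values near 0, as 0.0083 for Ikzf1 and 0.021 for Ikzf4, both at 6 h. No share of all genes that change sign is given, so the sign changes are not read as a result about the members. For Nrp1 the 6 h response was also of opposite sign, 0.12 in WT and -0.02 under the label Zak-/-, a difference of -0.14. With median-ratio scaling both Nrp1 responses were above 0, at 0.11 and 0.02, and with upper-quartile scaling Ikzf1 was lower under the label at all 3 times. The other sign changes were present under each of the 3 scalings, but the times that carried them could move. Ikzf4 at 0 h was -0.0047 unscaled and 0.0096 with a common FPKM sum. Izumo1r at 48 h was 0.047 unscaled and -0.12 with median-ratio scaling.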

How the results depend on the processing

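No 2-fold or limma call of a member turned its direction under any pseudocount, scaling, filter, size rule, variance trend or time left out. With a pseudocount of 5 FPKM the members at least 2-fold apart at 48 h against 0 h were 4 in WT and 3 under the label Zak-/-, and 4 at 48 h against 6 h in WT, by construction of the larger pseudocount. With the 1.5-fold rule, a lower threshold by construction, 5 members passed at 6 h under the label Zak-/-. Foxp3 at 48 h against 0 h under that label passed 2-fold with a pseudocount of 0.1 FPKM (-1.05) and with each scaling (-1.04 with upper-quartile scaling, -1.05 with median ratios and -1.10 with a common sum). Ikzf3 at 6 h missed the limma threshold with a common sum, upper-quartile scaling, no filter and no variance trend (adjusted p from 0.0566 to 0.136), and the cause was not tested. A mean of 5 FPKM left out Ikzf2 and Nrp1. Over all genes, limma called 3 between the genotypes, and from 0 to 64 under the alternatives, 64 without the 48 h libraries and 11 with median-ratio scaling. Scaling moved the median of all genes by up to 0.16 (log2), at 48 h between the labels with median-ratio scaling. No pairing of replicates within a time was possible, because each group has 1 library and the labels share fewer than 2 replicate numbers. The additive fit itself pairs the genotypes by time over the 3 times. Levels near 1 FPKM, as for Ikzf2 at 48 h and Nrp1 at 0 h and 6 h, were the lowest of the members. The number of fragments behind them also depends on transcript length and was not available.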
